A study of Mus musculus with 18 samples.

Results

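Integrins and laminins were followed as 37 genes among the 23238 symbols of the count tables. They were picked by symbol alone and make up 18 integrin alpha, 8 integrin beta and 11 laminin genes. RNA came from 18 samples of sorted cells of the small intestine of adult C57BL/6J mice. Control mice (WT) are labelled PDGFRb+-CreERT2-Tomato+. Knockout mice (KO) carried, besides that Cre and reporter, floxed alleles of both kinase genes (Lats1f/f and Lats2 f/f), so Cre and tdTomato were shared by all groups as labelled. Tamoxifen activates this Cre, which the Pdgfrb promoter drives in fibroblasts, pericytes and part of the smooth muscle. Intestinal stromal cells (IntSCs), sorted on tdTomato after leukocytes, epithelium and endothelium had been depleted, were profiled in 6 WT and 5 KO samples. Lymphatic endothelial cells (LECs) of the small intestine were profiled in 4 WT and 3 KO samples, and are not a cell type in which this Cre is meant to act. The study describes mice pooled from several experiments, with group sizes like these, but the labels tie no sample to an animal or an experiment, so p-values measure the spread between these samples.

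Integrins are receptors of an alpha and a beta chain that tie cells to the extracellular matrix or to other cells. The alpha chain largely sets the ligand: collagen, laminin, or proteins with an RGD motif such as fibronectin. Laminins are trimers of an alpha, a beta and a gamma chain and form the sheet of the basement membrane under epithelium and around muscle and vessels. LATS1 and LATS2 are kinases of the Hippo pathway that restrain the coactivators YAP and TAZ.

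Total counts ranged from 5361250 to 10549233 per library, of which Rn45s, the ribosomal RNA precursor, took 7.02% to 24.4%. Levels are counts scaled to library size (CPM) with TMM factors over all 18 libraries, and 3 counts were worth 0.284 to 0.560 CPM before TMM. Reads come from the 3′ end, about 1 place per transcript, so levels of different genes were compared without a length correction. The 7 stromal markers summed to 9807 to 15098 CPM in WT IntSCs, 6848 to 11541 in KO IntSCs, 558 to 1932 in WT LECs and 274 to 518 in KO LECs. WT LEC 1 held the highest of the WT LEC sums, and the other 3 were at most 618 CPM. The 9 LEC markers summed to 8938 to 12960 CPM in WT LECs, 10102 to 14894 in KO LECs, 238 to 422 in WT IntSCs and 430.1 to 502 in KO IntSCs. Lats1 was at 0 to 30.1 CPM in WT and 12.9 to 21.2 CPM in KO IntSCs and Lats2 at 41.5 to 113 and 79.98 to 130.0 CPM, and neither passed the test of KO against WT. Reads at the 3′ end need not be lost when internal exons are deleted, so these values do not check the genotype.

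Of the 37 genes 31 passed the filter on low counts in at least 1 of 5 comparisons, and 17 passed in all of them. The 6 that passed in none were Itga2, Itgad, Itgae, Itgb6, Itgb7 and Lamb3, with highest values in any library of 5.90, 0.721, 0.360, 0.632, 1.73 and 14.2 CPM. The leukocyte chains Itgal, Itgam, Itgax and Itgb2 stayed at or under 16.7 CPM in every library.

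**Figure D1:**
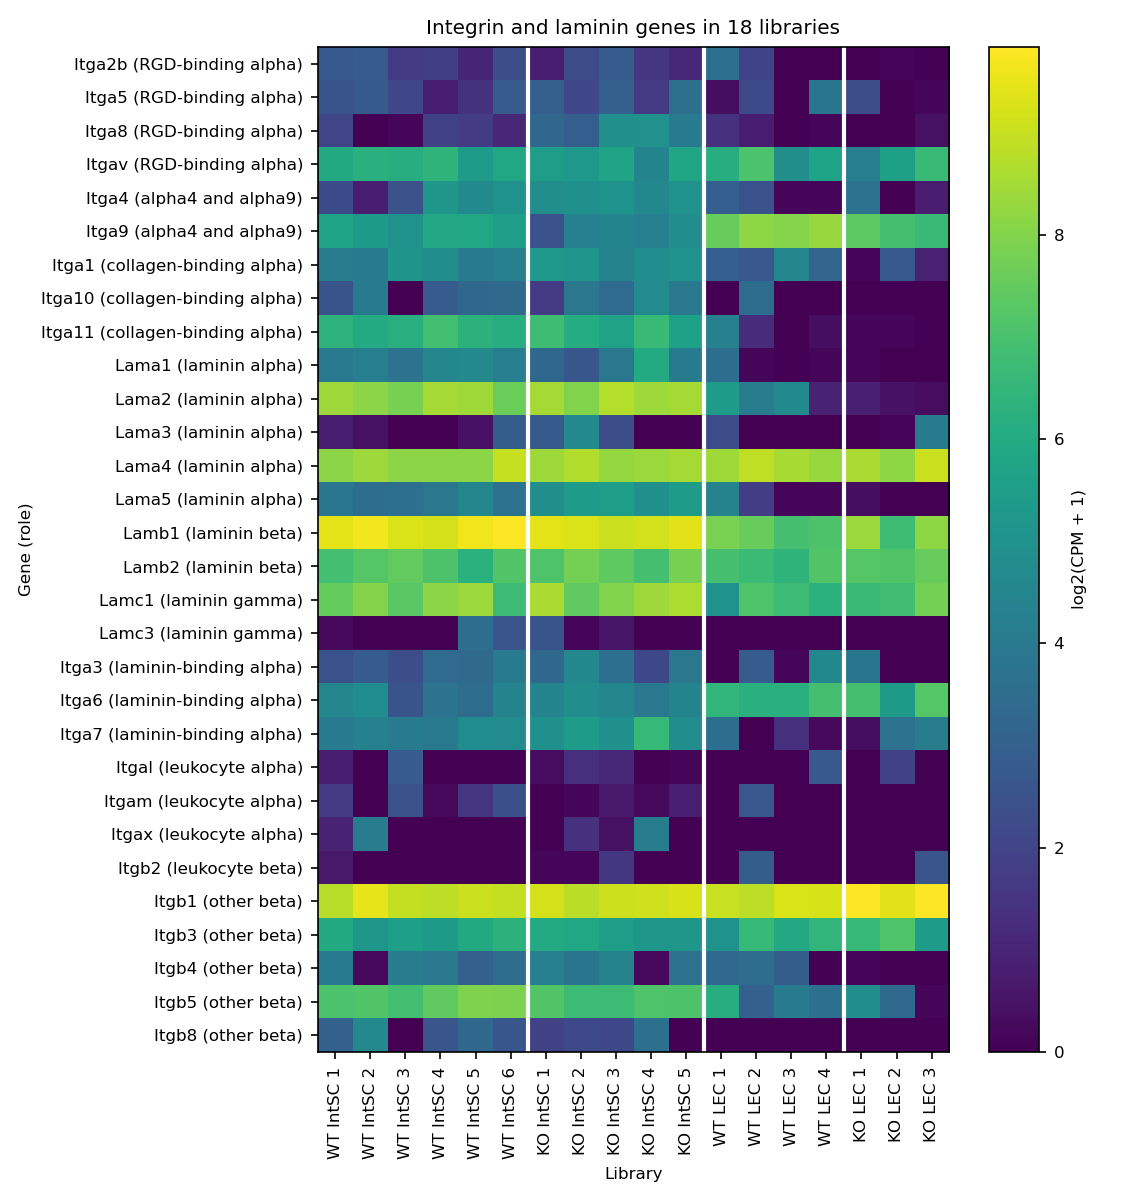
Rows are the named genes with their role, columns are the 18 libraries, and colour gives log2(CPM + 1). Itgb1, Lama4, Lamb1 and Lamb2 were high in all 4 groups, Lama2 and Itga11 in IntSCs, and Itga9 and Itga6 in LECs.

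In WT IntSCs laminin chains and Itgb1 were the most abundant members. Lamb1, a laminin beta chain, ranged from 580.1 to 913 CPM (median 737). Itgb1, the beta chain shared by most matrix-binding integrins, ranged from 434 to 717 CPM (median 486). Lama4, a laminin alpha chain of vessels, ranged from 277 to 499 CPM (median 278). Neighbours in the order of mean level overlapped, so their order is not resolved. Lama2, the alpha chain of muscle basement membrane, ranged from 195 to 366 CPM (median 309), and Lamc1, the most widespread gamma chain, from 107 to 329 CPM (median 219). Itgb5, a partner of the alpha V chain, ranged from 116 to 246 CPM (median 156). Lower in the order came Lamb2, a second laminin beta chain, from 76.2 to 176 CPM (median 138), and Itga11, a collagen receptor chain of fibroblasts, from 63.3 to 115 CPM (median 74.6). These last genes overlapped as well.

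In WT LECs Itgb1 led with 514, 465.7, 628 and 610.5 CPM. Lama4 was at 345, 475, 372 and 319 CPM. Itga9, an alpha chain that binds EMILIN1, tenascin and VCAM1 and is needed for lymphatic valves, was at 188, 282, 261 and 319 CPM. These genes had the highest means, and neighbours in the order overlapped here too. Lamb1 was at 231, 186, 120.0 and 134 CPM and Lamb2 at 123.0, 102.3, 82.8 and 143.5 CPM. Itga6, a laminin-binding alpha chain, was at 87.6, 75.2, 74.6 and 119.8 CPM. Lamc1 (31.6, 138, 107 and 77.7 CPM) and Itgav, the alpha V chain (68.4, 132, 28.3 and 50.6 CPM), varied more between libraries than Itga6 did.

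Laminin alpha counts were divided differently in the sorted populations. Lama4 held 49.7% ± 10.5 (SD, n = 6) of them in WT IntSCs and 92.8% ± 7.71 (SD, n = 4) in WT LECs, while Lama2 held 45.2% ± 10.2 and 4.97% ± 4.13. Among beta integrins Itgb1 held 67.6% ± 6.91 in WT IntSCs and 84.03% ± 3.99 in WT LECs. Among alpha integrins Itga9 held 56.7% ± 8.67 in WT LECs and 15.96% ± 3.17 in WT IntSCs. A share moves with every chain of its class. In bulk samples, fewer cells of a type and less RNA per cell cannot be told apart.

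**Figure D2:**
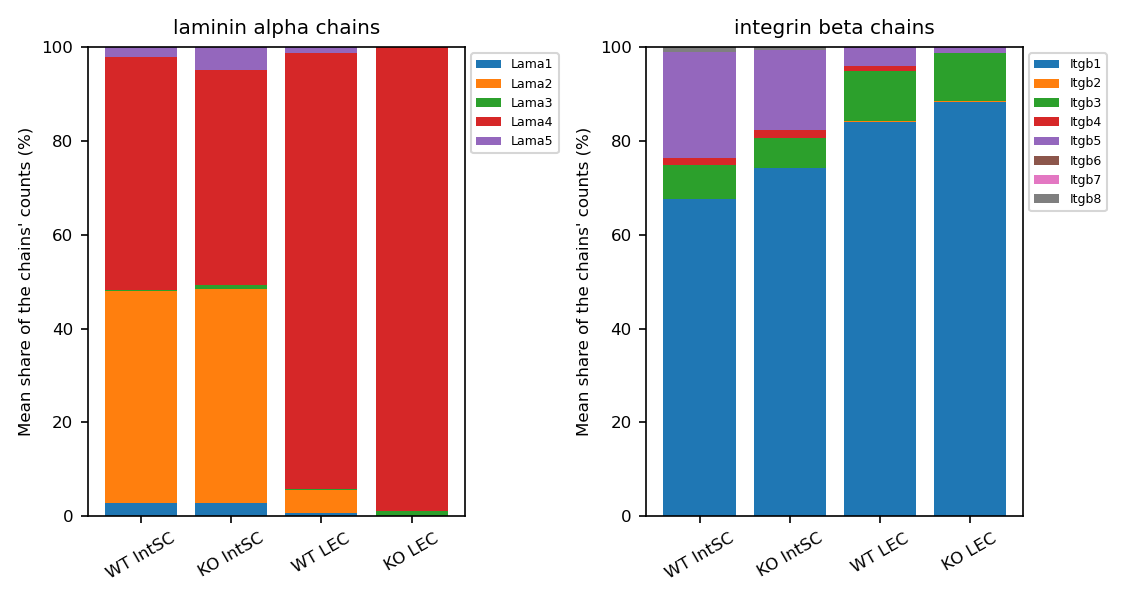
Stacked bars give each chain's mean share of the counts of its class, in percent, in the 4 groups. Lama4 took most laminin alpha counts in LECs and shared them with Lama2 in IntSCs.

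Other tested members are given by mean ± SD in WT IntSCs, KO IntSCs, WT LECs and KO LECs, in that order (n = 6, 5, 4 and 3). Among collagen-binding chains Itga1 was at 21.2 ± 7.52, 30.03 ± 6.85, 10.5 ± 7.58 and 2.16 ± 2.89 CPM and Itga10 at 7.51 ± 5.300, 13.4 ± 8.61, 2.53 ± 5.06 and 0 ± 0 CPM. Among laminin-binding chains Itga3 was at 8.35 ± 4.403, 12.1 ± 7.34, 7.37 ± 10.9 and 4.33 ± 7.497 CPM and Itga7 at 19.5 ± 5.15, 44.7 ± 28.7, 3.16 ± 5.17 and 9.86 ± 8.66 CPM. Their LEC means were all below the mean of Itga6 in LECs. Among RGD-binding chains Itga5, the fibronectin receptor chain, was at 3.74 ± 2.24, 6.17 ± 3.54, 4.26 ± 6.17 and 1.39 ± 2.303 CPM, and Itga2b, the platelet chain, at 3.56 ± 1.94, 2.796 ± 2.29, 3.498 ± 5.21 and 0.0344 ± 0.0596 CPM. Itga4, the relative of Itga9, was at 16.7 ± 15.6, 28.8 ± 3.44, 2.88 ± 3.33 and 4.25 ± 6.73 CPM, and Cerkl lies over its 3′ end on the other strand. Itgb3, the other main partner of alpha V, was at 54.2 ± 16.6, 47.2 ± 12.4, 68.9 ± 29.1 and 92.02 ± 48.8 CPM and Itgb4, the hemidesmosome chain, at 10.7 ± 6.301, 12.6 ± 7.85, 6.55 ± 4.68 and 0.0465 ± 0.0806 CPM. Itgb8, which with alpha V activates TGF-beta, was at 8.37 ± 8.103, 4.14 ± 4.11, 0 ± 0 and 0 ± 0 CPM. Of Itgb3, Itgb4 and Itgb8, Itgb3 had the highest mean in every group. Lama1 was at 17.999 ± 4.45, 21.4 ± 23.7, 2.72 ± 5.29 and 0.0465 ± 0.0806 CPM and Lama3 at 1.34 ± 2.56, 6.76 ± 9.95, 0.927 ± 1.85 and 5.29 ± 9.07 CPM. Lamc3, a gamma chain, was at 2.65 ± 4.43, 1.09 ± 2.104, 0 ± 0 and 0 ± 0 CPM. Each of these laminin chains had a lower mean than Lama4 in every group. Of the leukocyte chains Itgal was at 1.14 ± 2.44, 0.6204 ± 0.684, 1.45 ± 2.899 and 0.929 ± 1.61 CPM, Itgam at 2.16 ± 1.91, 0.337 ± 0.343, 1.33 ± 2.65 and 0 ± 0 CPM, Itgax at 2.93 ± 6.74, 3.74 ± 7.28, 0 ± 0 and 0 ± 0 CPM and Itgb2 at 0.101 ± 0.248, 0.462 ± 0.886, 1.604 ± 3.21 and 1.696 ± 2.94 CPM. Gm49368 lies over the 3′ end of Itgam on the same strand.

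WT LECs were compared with WT IntSCs to ask which sorted population held each chain in controls. Itga6 and Itga9 were higher in LECs, and Itga11, Itgb5, Itgb8, Lama2, Lamb1 and Lamc1 were higher in IntSCs. These are 8 of 26 members tested with edgeR's quasi-likelihood test (Benjamini-Hochberg adjusted p under 0.05), beside 22.6% of 12203 genes. The 2 higher in LECs stand beside 10.3% of genes and the 6 higher in IntSCs beside 12.3%. The median log2 fold change, LEC over IntSC, was -0.86 over the members and -0.0424 over all genes.

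Itga9 reached at most 59.8 CPM in WT IntSCs, below every WT LEC library, and differed by 2.47 ± 0.25 (log2 fold change ± SE, n = 4 and 6, edgeR adjusted p = 2.70e-06). Itga6 ranged from 4.87 to 26.5 CPM (median 16.2) in WT IntSCs, also below every LEC library, and differed by 2.49 ± 0.43 (adjusted p = 0.000623). Lamb1 differed by -2.12 ± 0.24 (adjusted p = 1.11e-05), with no overlap. Lama2 was at 41.9, 16.7, 24.9 and 0.8996 CPM in WT LECs, all below WT IntSCs, and differed by -3.78 ± 0.68 (adjusted p = 0.00101). Itgb5 was at 69.1, 7.16, 15.5 and 11.2 CPM in WT LECs and differed by -2.74 ± 0.58 (adjusted p = 0.00323). WT LEC 1, the library with the most stromal marker counts, was the highest of the WT LECs for Lama2 and Itgb5. The part of those counts in the result was not tested. Itga11 was at 18.5, 1.36, 0 and 0.2999 CPM in WT LECs (-3.96 ± 1.10, adjusted p = 0.0182), and this call was lost without WT LEC 2 (adjusted p = 0.0685). Lamc1 overlapped between the groups and differed by -1.29 ± 0.39 (adjusted p = 0.0241), a call lost without WT IntSC 2, 4 or 5 or WT LEC 1 or 4 (adjusted p of up to 0.0657). Itgb8 had no read in WT LECs (adjusted p = 0.0122), and its mean in WT IntSCs was at least 109-fold higher than 3 counts over the WT LEC group. WT IntSC 3 held no read of it either, so the groups overlapped. Without WT LEC 1, Itga7, Lama1 and Lama5 also passed. Lama4 (0.23 ± 0.22), Lamb2 (-0.23 ± 0.26), Itgb1 (0.10 ± 0.20) and Itgav (0.11 ± 0.38) did not pass. The 95% interval was -0.25 to 0.70 for Lama4 and -0.32 to 0.53 for Itgb1.

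The KO libraries, none of which entered the WT comparison, gave the same direction for most members. All 8 members called in WT were called in KO with the same sign, and 24 of 25 members tested in both shared their sign, as did 73.6% of 11862 genes. In KO 16 of 27 members passed, beside 25.9% of 12758 genes, with 3 higher in LECs (Itga6, Itga9 and Itgb1, beside 9.11% of genes) and 13 higher in IntSCs (beside 16.8%). The median log2 fold change was -2.15 over the members and -0.21 over all genes.

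Lama2 was at 0.838, 0.413 and 0.248 CPM in KO LECs and at 361, 253, 424, 337 and 368 CPM in KO IntSCs. The groups lay far apart (-9.44 ± 0.45, edgeR adjusted p = 1.80e-06). Itga11 (-9.59 ± 0.80, adjusted p = 2.07e-05) and Lama5 (-8.54 ± 1.18, adjusted p = 0.000559) were likewise near 0 in KO LECs. Itga9 (2.82 ± 0.48, adjusted p = 0.00211) and Itga6 (2.31 ± 0.44, adjusted p = 0.00362) were higher in LECs. Itga10 and Itgb8 had no read in KO LECs, and their KO IntSC means were at least 104-fold and 32.03-fold higher than 3 counts over that group. KO IntSC 5 held no read of Itgb8 either, so for Itgb8 the groups overlapped. The other calls were Itga8, Itgb4, Lama1, Lamb1, Itga1, Itga2b, Itgb5 and Lamc1, all higher in IntSCs. Some calls did not hold when a single library was left out. Itga1 was lost without KO IntSC 1, 2 or 5 or KO LEC 3 (adjusted p of up to 0.0673), and Itga2b without any KO LEC library (0.104). Itgb1 was lost when any single library other than KO LEC 2 was left out (0.09800), and Itgb8 with any other than KO IntSC 5 (0.0828). Itgb5 was lost without any KO IntSC library or KO LEC 2 (0.0724), and Lamc1 without KO IntSC 1, 3, 4 or 5 or KO LEC 1 or 2 (0.123).

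**Figure D3:**
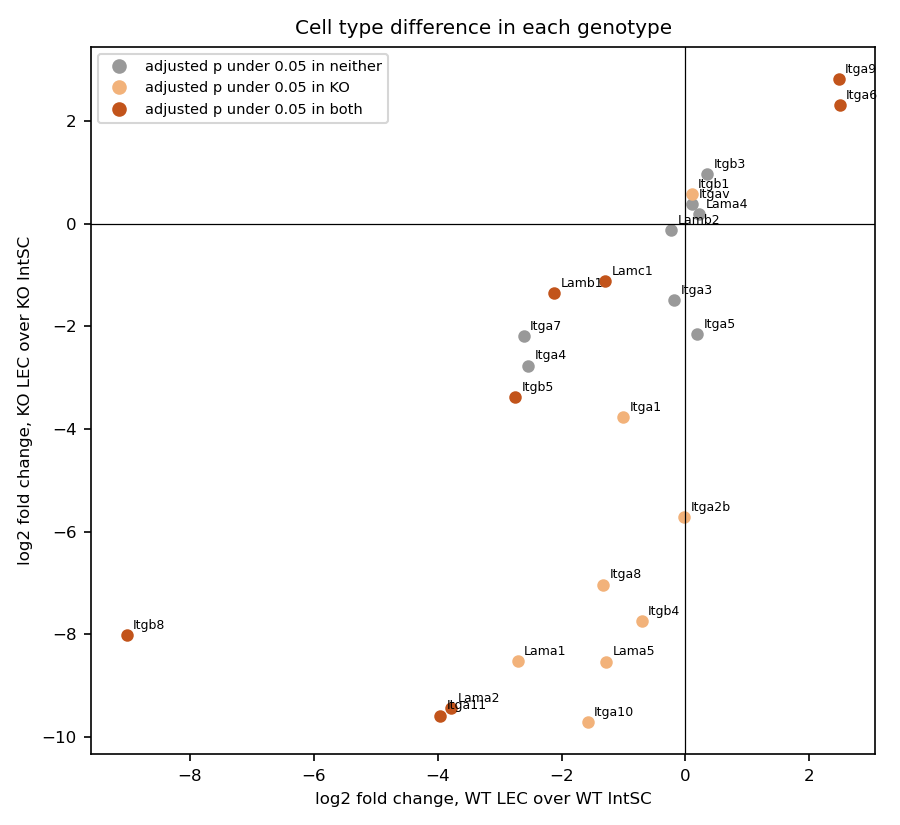
Points are named members tested in both genotypes, with the log2 fold change of LECs over IntSCs in WT (x axis) and KO (y axis), coloured by where the adjusted p was under 0.05. Itga6 and Itga9 lie at the upper right, Lama2, Itga11 and Itgb8 at the lower left, and every point shown but Itga5 has the same sign on both axes.

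In IntSCs, the cells in which Cre was driven, KO was compared with WT. Lama5 and Itga8 were higher in KO and no member was called lower. These are 2 of 24 members tested, beside 1.47% of 12421 genes. The 2 higher stand beside 0.853% of genes, and the 0 lower beside 0.62%. With an unadjusted p under 0.05 there were 6 members, beside 9.81% of all genes. The median log2 fold change, KO over WT, was 0.26 over the members and 0.0026 over all genes, and 16 of 24 were positive. In 4 of 24 members, Lama5, Itga8, Itga7 and Itga9, the KO and WT libraries did not overlap, as in 2.83% of all genes.

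Lama5, the alpha chain of laminins of vessels and epithelium, ranged from 10.8 to 22.1 CPM (median 12.8) in WT IntSCs and was at 27.7, 42.3, 45.3, 29.5 and 42.2 CPM in KO IntSCs. Every KO library exceeded every WT library. On the log2 scale KO differed from WT by 1.43 ± 0.33 (SE, n = 5 and 6, edgeR adjusted p = 0.0328). The call was lost without WT IntSC 1, 2 or 3 or KO IntSC 1, 2, 3 or 5, with log2 fold changes of 1.35 to 1.60 and adjusted p of up to 0.117 over all left-out libraries. It was also lost with no filter beyond 1 read and with all 4 groups in one fit.

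Itga8, an RGD-binding chain that pairs with Itgb1 and binds nephronectin, ranged from 0 to 3.19 CPM (median 1.703) in WT IntSCs and was at 8.501, 6.57, 29.8, 30.7 and 15.01 CPM in KO IntSCs. The groups did not overlap, and WT values were near the floor. KO differed from WT by 3.52 ± 0.89 on the log2 scale (edgeR adjusted p = 0.0497). The call was lost when any single library other than WT IntSC 2 was left out, with log2 fold changes of 3.24 to 3.84 and adjusted p of up to 0.203. It was also lost with limma-voom, upper-quartile factors, all 4 groups in one fit and without Rn45s. Npnt, the nephronectin gene, had a log2 fold change of -0.14 (adjusted p = 0.967).

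The 250 bases before the RefSeq start sites of Itga8 and Lama5 are shown because these were the members called in IntSCs (GRCm38.p6, on the gene's strand). They were searched for GGAAT on both strands (ATTCC on the other), the core of the site of TEAD factors, the partners of YAP and TAZ. Neither window holds it, so all letters are in lower case, which says nothing of TEAD binding elsewhere. The letters occur in 34.2% of 32851 windows of this length and in 8 of the 26 windows found for 23 of the 37 members. The windows are chr2:12301945-12302194 for Itga8 and chr2:180225860-180226109 for Lama5, both on the minus strand, next to genes at chr2:12106632-12301922 and chr2:180176373-180225859 (GENCODE vM21, GRCm38).
Itga8: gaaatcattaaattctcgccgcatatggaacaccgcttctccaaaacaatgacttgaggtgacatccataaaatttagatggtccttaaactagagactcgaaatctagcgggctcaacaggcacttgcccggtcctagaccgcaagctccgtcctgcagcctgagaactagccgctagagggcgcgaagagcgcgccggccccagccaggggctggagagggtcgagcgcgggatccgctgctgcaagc
Lama5: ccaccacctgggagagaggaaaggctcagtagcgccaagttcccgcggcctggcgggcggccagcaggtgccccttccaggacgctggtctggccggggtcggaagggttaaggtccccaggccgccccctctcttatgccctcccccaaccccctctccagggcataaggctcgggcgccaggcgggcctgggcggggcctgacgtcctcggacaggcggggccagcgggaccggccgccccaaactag

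Itga9 and Itga7 separated the genotypes in IntSCs without passing. Itga9 ranged from 32.1 to 59.8 CPM (median 47.3) in WT and was at 4.58, 19.04, 20.8, 17.9 and 27.1 CPM in KO, all lower (-1.41 ± 0.37, edgeR adjusted p = 0.0575). DESeq2, limma-voom and the test with no filter did call it. Itga7, a laminin receptor chain of muscle, ranged from 14.6 to 26.3 CPM (median 17.5) in WT and was at 29.8, 40.95, 30.02, 95.1 and 27.4 CPM in KO, all higher (1.20 ± 0.36, adjusted p = 0.125), with KO IntSC 4 highest. Gm2415 lies over the 3′ end of Itga9 and Mettl7b over that of Itga7, each on the other strand, and the strand setting of the counting is not given in the sources used here. Itgav (-0.64 ± 0.27, adjusted p = 0.413) and Itgb5 (-0.46 ± 0.22, adjusted p = 0.485) did not pass. The abundant chains Lama2 (0.26 ± 0.19), Lama4 (0.11 ± 0.18), Lamb1 (-0.25 ± 0.16), Lamb2 (0.39 ± 0.22), Lamc1 (0.50 ± 0.26) and Itgb1 (0.0839 ± 0.16) did not pass either.

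Marker sums of other cells were taken in the same IntSC libraries. The 5 Paneth cell markers summed to 0.271 to 6.32 CPM in WT and 38.1 to 112 CPM in KO. The 8 epithelial markers summed to 5.39 to 159 and 44.5 to 162 CPM, and the 6 smooth muscle markers to 1037 to 1802 and 1252 to 2336 CPM. The 6 blood endothelial markers summed to 1348 to 2950 CPM in WT and 1092 to 1867 CPM in KO. Of these 4 lists only the Paneth sums did not overlap, and the LEC marker sums given above did not overlap either. Of tested genes, 2 of 3 Paneth markers were called higher in KO, beside 0.853% of all genes. For blood endothelial markers 1 of 6 was called lower, beside 0.62%, and 0 of 8 LEC markers were called. Of 7 stromal markers 1 was called lower (median log2 fold change -0.39), as was 1 of 5 pericyte markers (-0.59), also beside 0.62%. Of 6 smooth muscle markers 0 were called (0.37). The blood endothelial median log2 fold change was 0.49, although the median sum was 2152 CPM in WT and 1449 CPM in KO. A sum thus need not follow most genes of its list. The part of these cells in the Lama5, Itga8, Itga7 and Itga9 values was not tested.

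**Figure D4:**
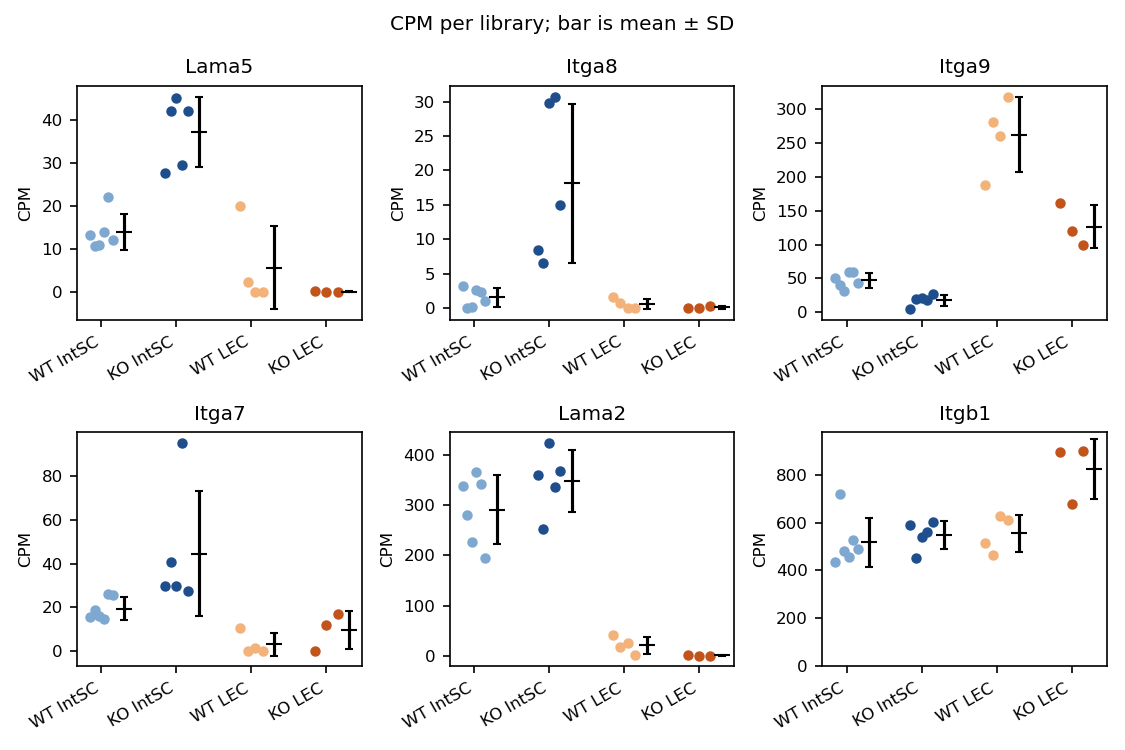
Points are CPM per library for 6 members in the 4 groups, with mean ± SD beside them. In IntSCs Lama5, Itga8 and Itga7 lie higher and Itga9 lower in KO, and in LECs Itga9 and Lama2 lie lower and Itgb1 higher in KO, each without overlap.

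In LECs no member passed the comparison of KO with WT. With edgeR 0 of 18 members were called, beside 0.0658% of 10639 genes, while 4 had an unadjusted p under 0.05, beside 7.87% of all genes. DESeq2 called 2 of 18, Itgb1 and Lama2, beside 2.9% of all genes. With all 4 groups in one fit 3 of 31 were called, Itga11, Lama2 and Lama5, all lower in KO, beside 3.84% of genes. In the edgeR fit of LECs alone the median log2 fold change was 0.22 over the members and -0.0318 over all genes. In 4 of 18 members, Itga9, Lama2, Itgb1 and Lamb2, the libraries did not overlap, as in 9.93% of all genes.

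Itga9 was at 161, 119.8 and 99.01 CPM in KO LECs, against 188 to 319 CPM in WT LECs (-0.98 ± 0.31, edgeR adjusted p = 0.3895). Itgb1 was at 895, 677 and 897 CPM in KO LECs, against 465.7 to 628 CPM in WT (0.64 ± 0.22, adjusted p = 0.442). Lamb2 was at 148.4, 143.7 and 187.2 CPM in KO LECs (0.58 ± 0.32, adjusted p = 0.779), just above the WT values. Itga9 was thus lower, and Itgb1 and Lamb2 higher, in every KO library. Lama2 was below 1 CPM in all KO LEC libraries (-5.31 ± 1.99, adjusted p = 0.515), as in WT LEC 4. Itgb4 was at 9.23, 10.5, 6.47 and 0 CPM in WT and 0.1396, 0 and 0 CPM in KO LECs (-6.78 ± 3.02, adjusted p = 0.591), so the groups overlapped. The stromal markers were also lower in KO LECs, as given above, without overlap, and the Paneth markers summed to 0 to 0.7404 CPM in WT and 11.8 to 87.6 CPM in KO LECs. The 8 leukocyte markers summed to 75.2 to 146 CPM in WT and 28.5 to 65.2 CPM in KO LECs, also without overlap. Their part in these values was not tested.

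**Figure D5:**
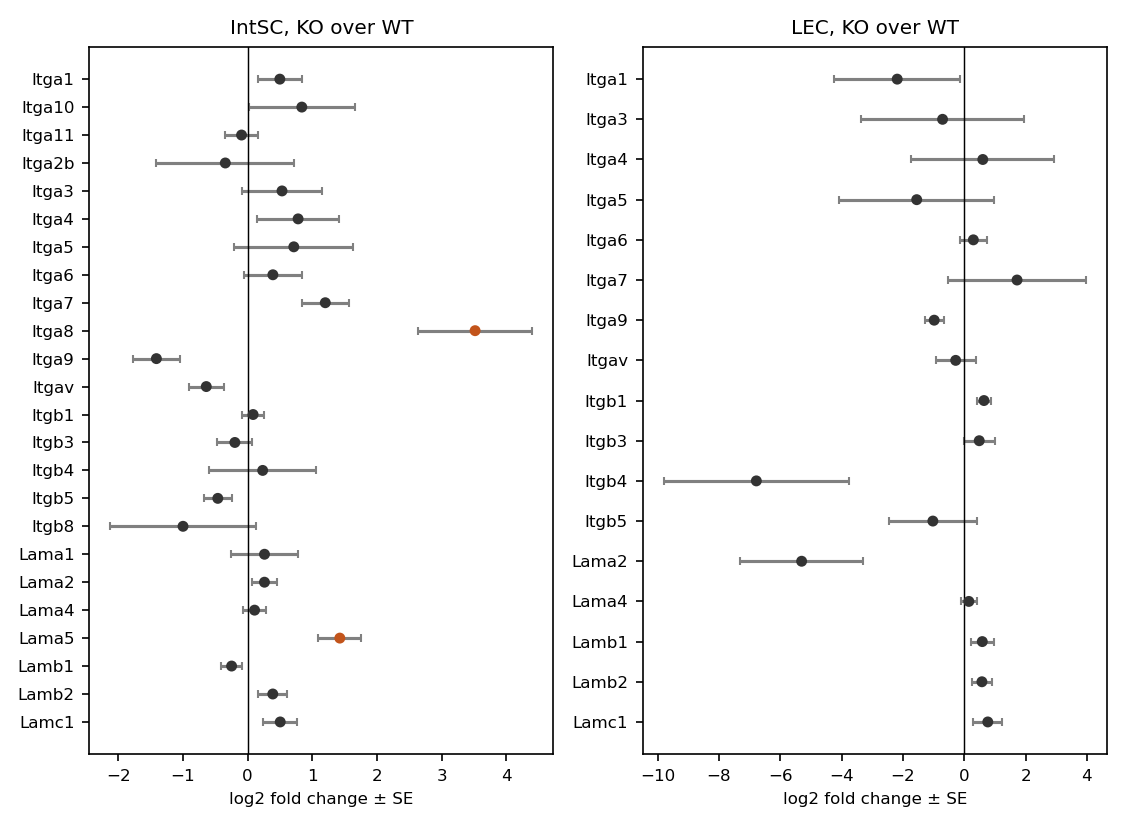
Points are log2 fold changes of KO over WT for the named members tested in IntSCs (left) and LECs (right), and bars are the SE. Lama5 and Itga8 in IntSCs are coloured, with an adjusted p under 0.05, and no LEC member is.

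Whether the genotype effect differed between IntSCs and LECs was tested as an interaction, the effect in IntSCs minus that in LECs. This fit of all 4 groups estimates a single spread per gene for both cell types. Its p-values therefore do not measure the spread of LECs alone. Lama2 and Lama5 passed, 2 of 31 members, beside 1.7% of 14015 genes. The median was 0.23 over the members and 0.24 over all genes (log2). Lama2 had a log2 difference of 5.65 ± 0.97 (edgeR adjusted p = 0.00614) and passed without any 1 of the 18 libraries (adjusted p of up to 0.0178). In the fit of LECs alone the SE of Lama2 was 1.99. Gm48084 lies over the 3′ end of Lama2 on the other strand. Lama5 was at 20.1, 2.47, 0.0937 and 0.09996 CPM in WT LECs and at 0.279, 0 and 0 CPM in KO LECs, so only WT LEC 1 and WT LEC 2 were above the KO range. It did not pass the filter on low counts in the comparison of LECs alone. Its log2 difference was 7.24 ± 1.85 (adjusted p = 0.04298). This call was lost without any IntSC library, WT LEC 1, KO LEC 2 or KO LEC 3 (adjusted p of up to 0.1198). Both calls were lost with limma-voom. WT LEC 1 held the most stromal marker counts of the LECs, whose part in the Lama5 and Lama2 values was not tested.

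Other genes of integrin adhesion were counted in IntSCs. Over all genes 0.853% were called higher and 0.62% lower in KO. Of 20 adhesion adaptors 19 were tested, with 2 higher in KO and 0 lower. Tns1, a tensin that links integrins to actin, was at 199 ± 28.7 CPM in WT and 379 ± 39.9 CPM in KO (log2 fold change 0.93 ± 0.16, adjusted p = 0.003203), and Fermt3, a kindlin of blood cells, at 0.0479 ± 0.0744 CPM in WT and 5.62 ± 2.85 CPM in KO (log2 fold change 6.36 ± 1.42, adjusted p = 0.0236) (edgeR). Of 12 other ligands 11 were tested, with 2 higher and 1 lower. Fbln5, an elastic fibre protein with an RGD motif, was at 77.99 ± 29.8 CPM in WT and 358 ± 103 CPM in KO (log2 fold change 2.20 ± 0.27, adjusted p = 0.000122), and Thbs1, thrombospondin 1, at 36.2 ± 9.602 CPM in WT and 114 ± 31.6 CPM in KO (log2 fold change 1.65 ± 0.25, adjusted p = 0.000697). Tnc, tenascin C, was lower, at 317 ± 85.2 CPM in WT and 159.8 ± 13.3 CPM in KO (log2 fold change -0.99 ± 0.19, adjusted p = 0.00859). Of 8 basement membrane partners 7 were tested, and 1 was lower, Hspg2, the gene of perlecan, at 1179 ± 189 CPM in WT and 709.6 ± 141 CPM in KO (log2 fold change -0.73 ± 0.17, adjusted p = 0.0364). In LECs 0 of 17 adaptors, 0 of 9 ligands and 0 of 7 partners were called by edgeR in KO against WT, beside 0.0658% of all genes. In the interaction 4 of 11 ligands passed, beside 1.7% of all genes. Thbs1 had log2 fold changes of 1.65 in IntSCs and -0.54 in LECs (adjusted p of the difference = 0.00799), Svep1 of 0.18 in IntSCs and -5.55 in LECs (adjusted p of the difference = 8.86e-06) and Emilin1 of -0.83 in IntSCs and 1.12 in LECs (adjusted p of the difference = 0.0105). Of these values only that of Thbs1 in IntSCs passed within its own cell type. Madcam1 was the other, and had no read in KO LECs. Svep1 was at 217 ± 36.8 CPM in WT IntSCs, 12.5 ± 4.57 CPM in WT LECs and 0.243 ± 0.217 CPM in KO LECs. The stromal markers were also lower in KO LECs, and their part in the Svep1 values was not tested.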

How the data were processed

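RNA was read from the 3′ end with QuantSeq libraries. The authors deposited, per library, a table of raw counts for each gene symbol. Submitters' processing notes name Bowtie2, edgeR and mm10, and the study's methods name TopHat and Cufflinks. The counting program, its strand setting and the annotation are not given in the sources used here. Rows of the 35 symbols that occurred more than once were summed, and samples were grouped by title. Members, lists and alternatives were chosen with earlier results of these data known.

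Each comparison was fitted on its own groups in edgeR 4.0.16 (R 4.3.3) with TMM, filterByExpr and robust quasi-likelihood F tests, adjusted over all genes at 0.05. SEs derive from F. The procedure was tested on simulated data. Alternatives were DESeq2 1.42.0, limma-voom (limma 3.58.1), other scaling factors (upper-quartile or RLE), other filters (a mean of 10 counts, or only 1 read), the replicate number as a block, all 4 groups in one fit, removal of Rn45s, and each library left out. Floors of 3 counts cover counting error only, as reads lack molecular identifiers. Values in every library were given for members called in a genotype comparison or the interaction and the 8 most abundant in each WT cell type, and group means for the rest, except 1 member, which is counted but not reported here. Itga7 and Itgb4 were given in every library after their values were seen. Overlaps over the last 1000 bases are from GENCODE vM21.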

Additional observations from a re-analysis of the deposited data

Results flagged for a closer look

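Some libraries lay apart from the rest of their group, with a gap to the nearest value that took more of the group's range than Dixon's 95% critical value. Among members with a group mean of at least 5 CPM, a limit set after the values had been seen, 11 of 60 sets of values held such a library. For independent, normally distributed values chance marks about 1 in 20, or 3 sets. CPM values need not be so, and a library can mark several genes, so no excess over chance is read from this. With no limit 35 of 101 sets did. Itga1 was at 21.7 CPM in WT LEC 3, and the rest of that group spanned 5.43 to 8.197 CPM. Itga11 was at 115 CPM in WT IntSC 4, and the rest of that group spanned 63.3 to 80.3 CPM. Itga11 was at 18.5 CPM in WT LEC 1, and the rest of that group spanned 0 to 1.36 CPM. Itga7 was at 95.1 CPM in KO IntSC 4, and the rest of that group spanned 27.4 to 40.95 CPM. Itgb1 was at 717 CPM in WT IntSC 2, and the rest of that group spanned 434 to 528 CPM. Itgb5 was at 69.1 CPM in WT LEC 1, and the rest of that group spanned 7.16 to 15.5 CPM. Lama1 was at 63.1 CPM in KO IntSC 4, and the rest of that group spanned 5.205 to 15.5 CPM. Lama3 was at 23.97 CPM in KO IntSC 2, and the rest of that group spanned 0 to 5.89 CPM. Lama4 was at 499 CPM in WT IntSC 6, and the rest of that group spanned 277 to 332 CPM. Lama5 was at 22.1 CPM in WT IntSC 5, and the rest of that group spanned 10.8 to 13.97 CPM. Lama5 was at 20.1 CPM in WT LEC 1, and the rest of that group spanned 0.0937 to 2.47 CPM.

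A genotype effect that differed between IntSCs and LECs was called for Lama2 (log2 difference 5.65) and Lama5 (7.24). It was tested as the interaction term with edgeR (adjusted p = 0.00614 and 0.04298), in a fit with a single spread per gene for both cell types. Both calls were lost with limma-voom. Lama2 passed in neither cell type alone (edgeR adjusted p = 0.777 in IntSCs and 0.515 in LECs). It was at 0.8996 to 41.9 CPM in WT LECs and below 1 CPM in KO LECs. The stromal markers were also lower in KO LECs, and their part was not tested. The call of Lama5 was lost without any 1 of 14 of the 18 libraries, WT LEC 1 among them (adjusted p of up to 0.1198), and Lama5 was not tested in LECs alone.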

How the results depend on the processing

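Fold changes were recomputed 2409 times over 122 pairs of a member and a comparison, and 2317 kept their sign. Of the pairs called, 0 changed sign. The counts of members called moved as follows. For KO against WT in IntSCs the count was 1 with upper-quartile factors (of 24 tested, beside 1.49% of genes), 0 with all 4 groups in one fit (of 31 tested, beside 0.193% of genes) and 1 without Rn45s (of 24 tested, beside 1.48% of genes). For KO against WT in LECs the count was 2 with DESeq2 (of 18 tested, beside 2.9% of genes) and 3 with all 4 groups in one fit (of 31 tested, beside 3.84% of genes). For the interaction the count was 6 with DESeq2 (of 31 tested, beside 7.3% of genes) and 0 with limma-voom (of 31 tested, beside 0.999% of genes). With 1 library left out the count was 0 to 1 for KO against WT in IntSCs, 0 for KO against WT in LECs, 7 to 10 for WT cell types, 11 to 15 for KO cell types and 1 to 3 for the interaction. The cause was not tested. The depth limits what can be said of genes near 0.

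Deviations of same-numbered libraries from their group means correlated at most weakly (-0.0579 to 0.0559 for WT IntSC and KO IntSC, -0.0228 to 0.0155 for WT LEC and KO LEC, 0.0221 to 0.0382 for WT IntSC and WT LEC and -0.02005 to 0.0333 for KO IntSC and KO LEC), so the numbers were not taken as pairs, although all 4 pairs of WT IntSC and WT LEC were positive. Of the samples with a partner in these pairs of groups, 2 of 10, 2 of 6, 7 of 8 and 2 of 6 correlated best with their own number. With the replicate block the count was 0 for KO against WT in IntSCs, 0 for KO against WT in LECs and 0 for the interaction. The calls of Lama5 and Itga8 in IntSCs and of Lama2 and Lama5 in the interaction were thus lost. For WT cell types the count was 6 (Itga6, Itga9, Itgb5, Lama2, Lamb1 and Lamc1). For KO cell types it was 4 (Itga9, Itga11, Lama2 and Lama5). Signs that changed with the block were Lama1 -0.28 (KO against WT in IntSCs) and Itga5 1.42 (KO against WT in LECs). For WT cell types these were Itga5 -2.10 and Itgav -0.26, and for KO cell types Itgal -2.53. For the interaction they were Itgam -0.97, Itgax -0.78, Lama3 5.52 and Lamc3 4.52.

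Log2 fold changes of opposite sign, all of members that were not called, are given with their comparison. With limma-voom these were Lama1 -0.32 (KO against WT in IntSCs), Itga4 -0.15 (KO against WT in LECs), Itga5 -1.72 (WT cell types), Itgav -0.10 (WT cell types), Itgal -0.77 (KO cell types), Itgal 0.21 (the interaction), Itgam -0.62 (the interaction). With upper-quartile factors these were Itgb1 -0.0124 (WT cell types), Lama4 -0.0063 (the interaction). With DESeq2 these were Lama4 -0.0847 (the interaction). With RLE factors these were Lama4 -0.0849 (the interaction). With no filter beyond 1 read these were Lama4 -0.026 (the interaction). Without Rn45s these were Lama4 -0.0449 (the interaction). With 1 library left out, further values crossed 0. For KO against WT in IntSCs the ranges were Itga11 -0.27 to 0.0368, Itgb4 -0.0277 to 0.55, Lama1 -0.71 to 0.51. For KO against WT in LECs the ranges were Itga6 -0.081 to 0.69, Itgav -1.04 to 0.23, Itgb5 -2.37 to 0.16, Lama4 -0.0941 to 0.34, Itga4 -2.83 to 1.20. For WT cell types the ranges were Itga2b -1.85 to 0.39, Itga3 -1.98 to 0.24, Itga5 -1.54 to 0.60, Itgav -0.42 to 0.37. For KO cell types the ranges were Itgal -5.26 to 1.16, Itgav -0.38 to 0.81, Lama3 -6.55 to 1.08, Lama4 -0.0486 to 0.38. For the interaction the ranges were Itga3 -0.48 to 9.38, Itga4 -0.64 to 3.70, Itga6 -0.22 to 0.53, Itga7 -2.79 to 0.23, Itgal -6.73 to 5.62, Itgam -2.62 to 4.14, Itgav -0.79 to 0.48, Itgb5 -0.56 to 1.999, Lama3 -5.996 to 6.08, Lama4 -0.15 to 0.26, Lamb2 -0.24 to 0.0187, Lamc1 -0.49 to 0.27.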
